A study of Mus musculus with 4 samples.

Results

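Connexins are the proteins of gap junctions, and 9 connexin genes known from glia, neurons and vessels of the brain were followed in the cerebrum of Bcas1 knockout and wild-type mice. They were taken by symbol from the annotation of the array: Gja1, Gjb6 and Gjb2 of astrocytes, Gjb1 and Gjc3 of oligodendrocytes, Gjd2 of neurons, and Gja4, Gja5 and Gjc1 of vessels. These 9 genes had 18 of the 45037 probe sets tested, a probe set being the group of short oligonucleotides that reads 1 transcript region, and every one was kept. Among them, 5 genes had more than 1 probe set and 4 had a single one. The rule itself names no measured value, but the genes were chosen with earlier results of these data known.

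The samples were brain RNA of male C57BL/6 mice aged 8 to 9 weeks, described as cerebrum, from 2 wild-type (+/+) and 2 BCAS1 KO (-/-) animals bred from heterozygous parents, with 1 array per mouse. The labels name no other allele and no treatment, and they do not say which part of Bcas1 was disrupted. Bcas1 encodes a protein of myelinating oligodendrocytes. Values are log2 levels from RMA, a method that corrects background, equalises the arrays and summarises each probe set.

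A gap junction joins 2 neighbouring cells through paired half-channels, each built of connexins, and lets ions and small metabolites pass between their cytoplasms. In the brain, astrocytes form the most extensive network, mainly through Cx43 (Gja1) and Cx30 (Gjb6), and they are coupled to oligodendrocytes through channels that combine an astrocyte connexin on one side with an oligodendrocyte connexin on the other. Loss of oligodendrocyte connexins is known to damage myelin, which is why this family bears on a knockout of a myelin gene. Neuronal Cx36 (Gjd2) forms electrical synapses, and the connexins of endothelium and smooth muscle couple cells along the vessel wall.

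The arrays were alike in scale, with medians of 6.49 to 6.51. The brightest Bcas1 probe set measured 12.17 and 12.21 in the wild-type mice, against 11.05 and 10.75 in the knockouts. This is -1.29 on the log2 scale (SE 0.12), and the adjusted p from limma was 0.742. The other two Bcas1 probe sets were dim and differed by 0.77 and 0.64 in the opposite direction, and where they lie relative to the disruption was not known here. Markers of the labelled tissue were bright: the 7 neuronal markers averaged 12.26 to 12.31 per array, the 7 measured oligodendrocyte markers 11.56 to 11.71 and the 8 astrocyte markers 11.38 to 11.48. The second knockout array stood apart in 5 genes of nasal tissue, whose summed level was 38.85 there, while the wild-type arrays had 22.62 and 23.90 and the other knockout array 22.73. The leading counts of probe sets without overlap are therefore also given without that array.

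None of the 18 connexin probe sets passed the adjusted threshold of 0.05. The count was 0 of 18 in limma, with an adjusted p of 1 for each, where 0.00444% of all probe sets passed. The fit without the second knockout array leaves a lone knockout array, so no count of passing probe sets is given for it. With all arrays kept, the count at an unadjusted p under 0.05 was 1 of 18, the vascular connexin Gja5. The share among all probe sets was 3.42% in either direction and 1.82% for those higher in the knockout. Both knockout arrays lay above both wild-type arrays in 3 of the 18, in Gjb2, Gja5 and 1 of the 2 probe sets of Gjb1, where 13.9% of all probe sets did so. They lay below both in 0 of the 18, against 13.2% of all probe sets. Without the second knockout array a lone array was set against 2, and these counts became 8 and 1, against 29.4% and 37.1% of all probe sets. An exact permutation test of 2 mice against 2 cannot give a two-sided p below 1 in 3. In bulk tissue, fewer cells of a type and less RNA per cell cannot be told apart.

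The differences were small in both directions. Knockout minus wild type was positive in 10 probe sets, negative in 7 and 0 in 1, with a median of 0.025 on the log2 scale, beside a median of 0 over all probe sets. The median size of the difference, ignoring its sign, was 0.065 among the connexins and 0.065 among all probe sets. The extremes were -0.13 in a dim Gja1 probe set and 0.25 in Gja5. All 18 of the 95% intervals from limma lay within a 1.5-fold change either way, as did 92.3% of the intervals of all probe sets. The widest lower bound was -0.55, or 1.47-fold lower, and the widest upper bound was 0.48, or 1.39-fold higher. Each interval was computed for 1 probe set alone and not widened for the number of probe sets, and 5 of the 18 lay within a 1.2-fold change. RMA compresses changes of dim probe sets, so the intervals of dim members bound the array signal more firmly than the transcript. Leaving out 1 array kept 12 to 14 of the intervals within 1.5-fold.

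**Figure D1:**
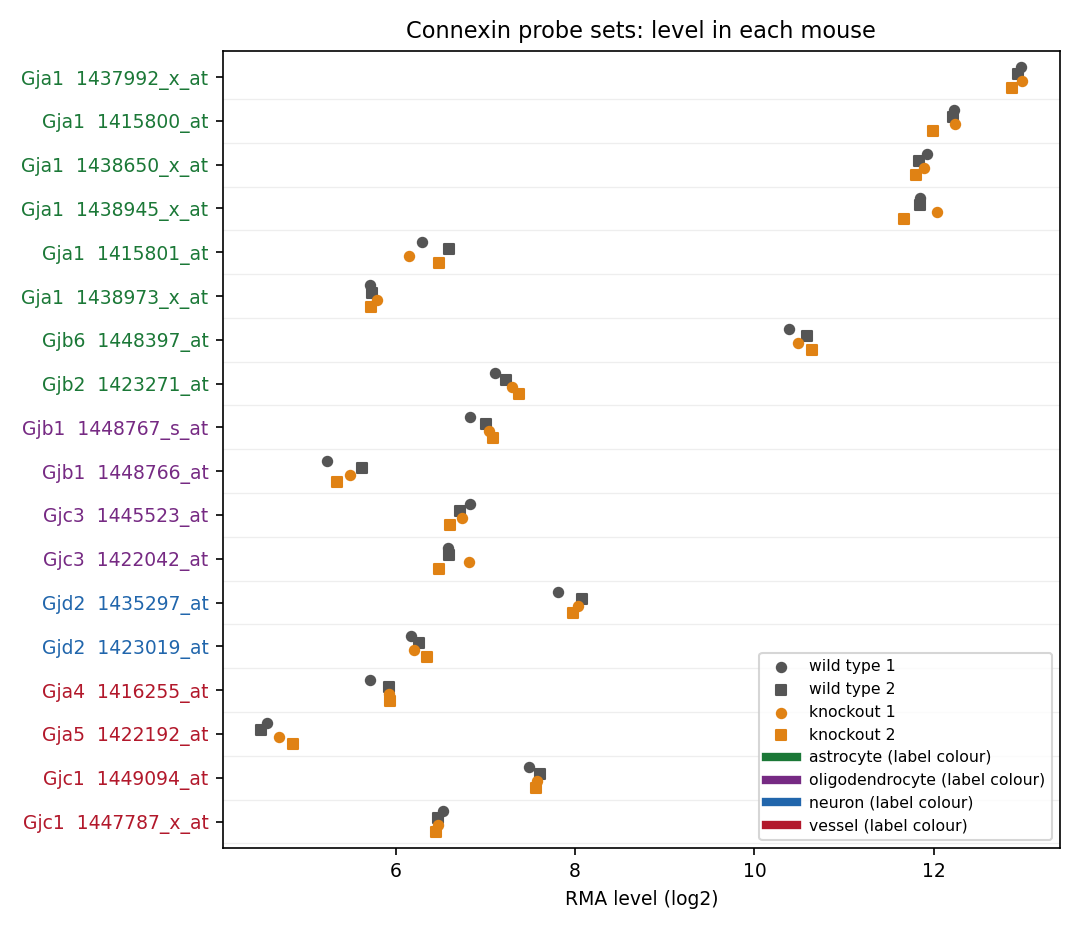
RMA level (log2) of each connexin probe set in each of the 4 mice, with the gene and probe set on the vertical axis, grey points for wild type and orange points for the knockout. The 4 bright Gja1 probe sets lie between 11.67 and 12.98 and Gjb6 between 10.38 and 10.64, while Gja5 is the dimmest at 4.50 to 4.86, and in most rows the grey and orange points overlap.

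How bright a probe set is also depends on its oligonucleotides, so the order of the levels is an order of signal and not of transcript abundance. For a sense of dim signal, 19 probe sets of genes of liver, muscle, testis, ovary and kidney, taken to be low in brain, had mean levels of 2.58 to 6.96 with a median of 4.07. Of the connexin probe sets, 9 exceeded that range and 9 lay within it. Those above were the 4 bright probe sets of Gja1, the single ones of Gjb6 and Gjb2, and the brighter ones of Gjb1, Gjd2 and Gjc1. Both probe sets of Gjc3 and the single ones of Gja4 and Gja5 lay within the range. Its top is set by 1 probe set, of the sperm protein gene Prm1. Without Prm1 the range ended at 6.33, and 13 connexin probe sets exceeded it, those of Gjc3 included. Gja4 and Gja5 lay within either range, so their signal could not be told from that of genes taken to be low in brain.

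Gja1, the main astrocyte connexin, was the brightest member and did not differ between the genotypes beyond the spread between mice. Its brightest probe set (1437992_x_at) measured 12.97 and 12.94 in the wild-type mice, against 12.98 and 12.87 in the knockouts. The knockout values lay on both sides of the wild-type pair, and the difference was -0.030 (SE 0.078, 95% interval -0.23 to 0.17). The next (1415800_at) measured 12.22 and 12.21 against 12.24 and 11.99, so that only the second knockout mouse was low, for a difference of -0.10 (SE 0.11). The probe set 1438650_x_at measured 11.92 and 11.84 against 11.89 and 11.80, and its difference was -0.035 (SE 0.079). In the fourth bright probe set (1438945_x_at) both wild-type mice measured 11.85, while the knockout mice measured 12.03 and 11.67. The group means were thus equal, with a difference of 0 (SE 0.14) and an interval of -0.35 to 0.35.

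In all 4 bright Gja1 probe sets the second knockout mouse measured less than the first, by 0.11, 0.25, 0.09 and 0.36 in the order given, while the wild-type mice differed by at most 0.08. The astrocyte markers, averaged over the list, were also lower in the second knockout mouse (11.40) than in the first (11.48), and stood at 11.38 and 11.40 in wild type. The part of this in the Gja1 result was not tested.

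The remaining Gja1 probe sets were dim. The probe set 1415801_at, designed from the same GenBank sequence as the bright 1415800_at, measured 6.29 and 6.60 in the wild-type mice, against 6.15 and 6.48 in the knockouts, with the mouse numbered 1 the lower in each group and a difference of -0.13 (SE 0.16). The dimmest (1438973_x_at) measured 5.71 and 5.74 against 5.79 and 5.72, a difference of 0.030 (SE 0.073). Probe sets with names ending in _x_at, 4 of the 6 here, hold oligonucleotides that can also match other transcripts.

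Gjb6, the second connexin of the astrocyte network, had 1 probe set, which measured 10.38 and 10.59 in the wild-type mice, against 10.49 and 10.64 in the knockouts. The groups overlapped, and in each the mouse numbered 2 was the higher. The difference was 0.080 (SE 0.11), with an interval of -0.20 to 0.36.

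Gjb2, which encodes Cx26 and is made by astrocytes and by cells of the leptomeninges, was the one astrocyte connexin whose groups did not overlap. It measured 7.11 and 7.23 in the wild-type mice, against 7.30 and 7.38 in the knockouts. Both knockout mice lay above both wild-type mice, by a margin of 0.07 between the nearest pair, which is less than the 0.12 between the wild-type mice. The means were 7.17 ± 0.085 and 7.34 ± 0.057 (SD, n = 2 each), and the difference of 0.17 (SE 0.083, interval -0.047 to 0.39) had an unadjusted p of 0.099 and an adjusted p of 1 in limma. It was 0.11 without the first wild-type mouse. Gjb2 lies between Gja3 and Gjb6 in the gene order of chromosome 14. Gja3, a lens connexin, was dim, and its brighter probe set measured 5.20 and 5.42 in the wild-type mice, against 5.28 and 5.15 in the knockouts.

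**Figure D2:**
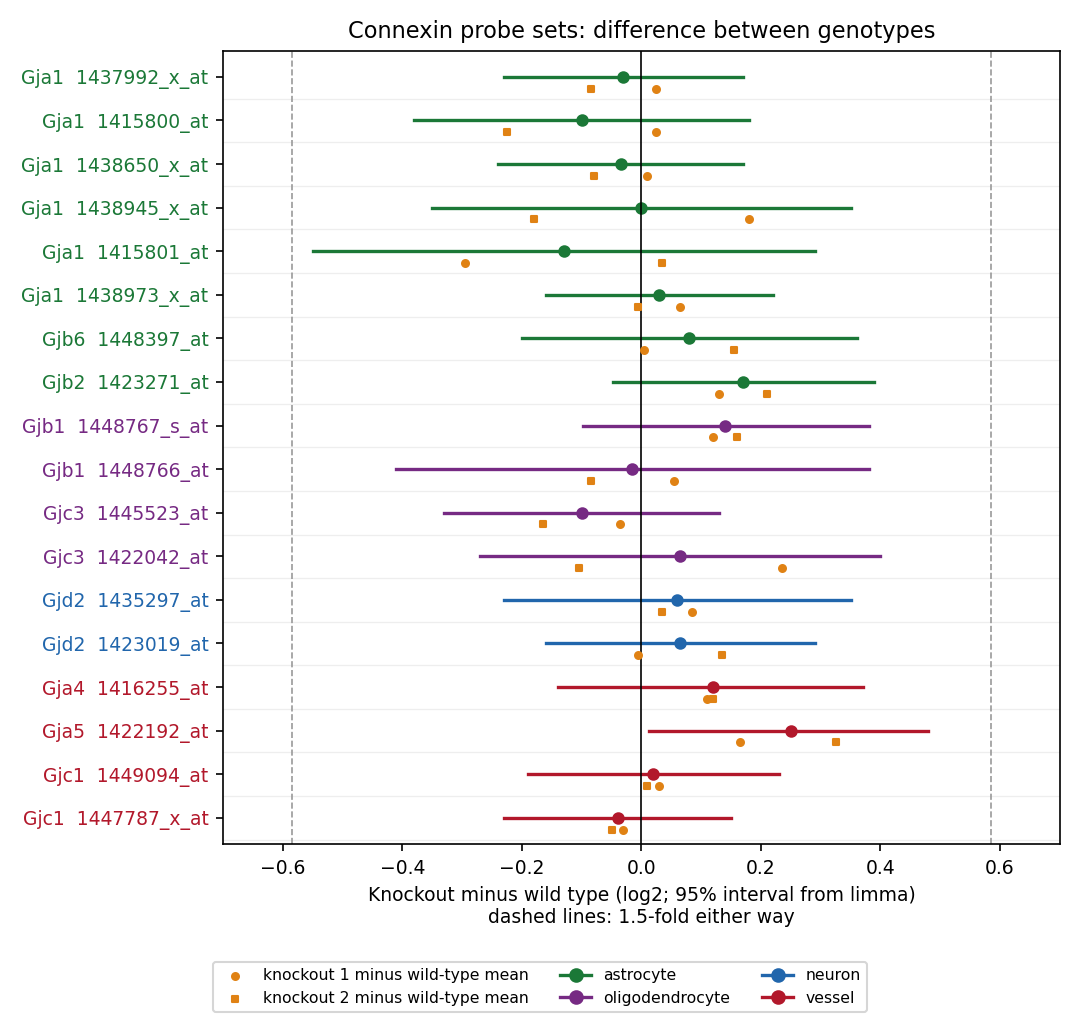
Knockout minus wild type (log2) of each connexin probe set as a point with its 95% interval from limma, coloured by cell type, and each knockout mouse minus the wild-type mean as a small orange mark below it. All 18 intervals lie between the dashed lines of a 1.5-fold change, and the interval of Gja5, 0.013 to 0.48, is the one that does not reach 0.

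The oligodendrocyte connexins, made by the cell type known to express Bcas1, showed no direction in common. Of their 4 probe sets, 2 were positive and 2 negative, with a median of 0.025, and 0 passed the adjusted threshold. The mean over the 4 probe sets was 6.37 and 6.49 in the wild-type mice, against 6.52 and 6.38 in the knockouts, so that each genotype had 1 higher and 1 lower mouse, at similar levels.

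Gjb1 encodes Cx32, found in myelin and in loops of the oligodendrocyte membrane, and its 2 probe sets differed in outcome. The brighter (1448767_s_at) measured 6.83 and 7.01 in the wild-type mice, against 7.04 and 7.08 in the knockouts. The knockout values were the higher, though the nearest pair lay only 0.03 apart, and the difference was 0.14 (SE 0.091, interval -0.098 to 0.38). The dimmer (1448766_at), from the same GenBank sequence, measured 5.24 and 5.63 in the wild-type mice, against 5.49 and 5.35 in the knockouts. There both knockout values fell between the wild-type values, for a difference of -0.015 (SE 0.15). Without the first wild-type mouse the difference of the brighter probe set was 0.050, and without the second 0.23.

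Gjc3 encodes Cx29, which lies in the innermost myelin layer facing the axon and is not known to form classical channels between cells. The probe set 1445523_at measured 6.83 and 6.72 in the wild-type mice, against 6.74 and 6.61 in the knockouts, a difference of -0.10 (SE 0.088), with -0.035 to -0.17 when 1 mouse was left out. The probe set 1422042_at measured 6.58 and 6.59 against 6.82 and 6.48, with 1 knockout mouse on each side of the wild-type pair, and its difference was 0.065 (SE 0.13). The first minus the second of these was 0.25 and 0.13 in the wild-type mice, against -0.08 and 0.13 in the knockouts, so only the first knockout mouse had them in the other order.

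Beside these, the oligodendrocyte markers had a median difference of 0.060 over 7 measured of 8 listed genes, with 6 positive and 0 past the adjusted threshold. The smallest p in each direction belonged to the myelin genes Cnp, at 0.095 (SE 0.073), and Mbp, at -0.055 (SE 0.081). Averaged over the list they stood at 11.56 and 11.61 in the wild-type mice, against 11.71 and 11.57 in the knockouts, the first knockout mouse being the highest, as it also was in the mean of the oligodendrocyte connexins.

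Gjd2, the connexin of electrical synapses, had similar values in both genotypes. Its brighter probe set (1435297_at) measured 7.81 and 8.08 in the wild-type mice, against 8.03 and 7.98 in the knockouts. The knockout values fell within the wild-type range, and the difference was 0.060 (SE 0.11, interval -0.23 to 0.35). The dimmer (1423019_at) measured 6.17 and 6.26 against 6.21 and 6.35, a difference of 0.065 (SE 0.087). The neuronal markers had a median difference of -0.0050, and the pair with the smallest p in each direction were Syt1, a calcium sensor of synaptic vesicles, at 0.035 (SE 0.075), and Slc17a7, a vesicular glutamate transporter, at -0.090 (SE 0.074).

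Among the vascular connexins, Gja5 had the largest difference of the family and also the dimmest signal. Gja5 encodes Cx40 of arterial endothelium, and it measured 4.57 and 4.50 in the wild-type mice, against 4.70 and 4.86 in the knockouts. Both knockout mice were higher, with 0.13 between the nearest pair, against 0.07 between the wild-type mice and 0.16 between the knockout mice. The means were 4.54 ± 0.049 and 4.78 ± 0.11 (SD, n = 2 each), a difference of 0.25 (SE 0.089) or 1.19-fold, with an interval of 0.013 to 0.48. Its unadjusted p was 0.042 and its adjusted p was 1 in limma. Of all probe sets, 5.17% had a difference at least as large in either direction. That share covers every brightness, and it was not computed among probe sets as dim as Gja5. Brighter probe sets differed less: the median size was 0.050 above the median level, beside 0.065 over all. The difference was 0.17 without the second knockout mouse and 0.33 without the first. Among dim signals, 4 of the 13 genes of other tissues, by their brightest probe sets, also had both knockout arrays above both wild-type arrays, beside 13.9% of all probe sets. The reverse held in 1 of the 13, beside 13.2%. Of the genes above 0, Ahsg, a liver plasma protein, had the smallest p, at 0.45 (SE 0.13). Umod, a kidney protein, had the smallest p among those below 0, at -0.15 (SE 0.069).

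Gja4, which encodes Cx37 of endothelium, measured 5.71 and 5.93 in the wild-type mice, against 5.93 and 5.94 in the knockouts. A tie at 5.93 left the groups touching, and the first wild-type mouse alone was low, for a difference of 0.12 (SE 0.099, interval -0.14 to 0.37). Without that mouse the difference was 0.0050, and without the other wild-type mouse 0.23. Gjc1 encodes Cx45, of smooth muscle and also of some neurons. Its brighter probe set (1449094_at) measured 7.49 and 7.61 against 7.58 and 7.56, a difference of 0.020 (SE 0.079). The dimmer (1447787_x_at) measured 6.53 and 6.47 against 6.47 and 6.45, a difference of -0.040 (SE 0.071). The values of Gjc1 in the 2 knockout mice were 0.02 apart in both probe sets.

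**Figure D3:**
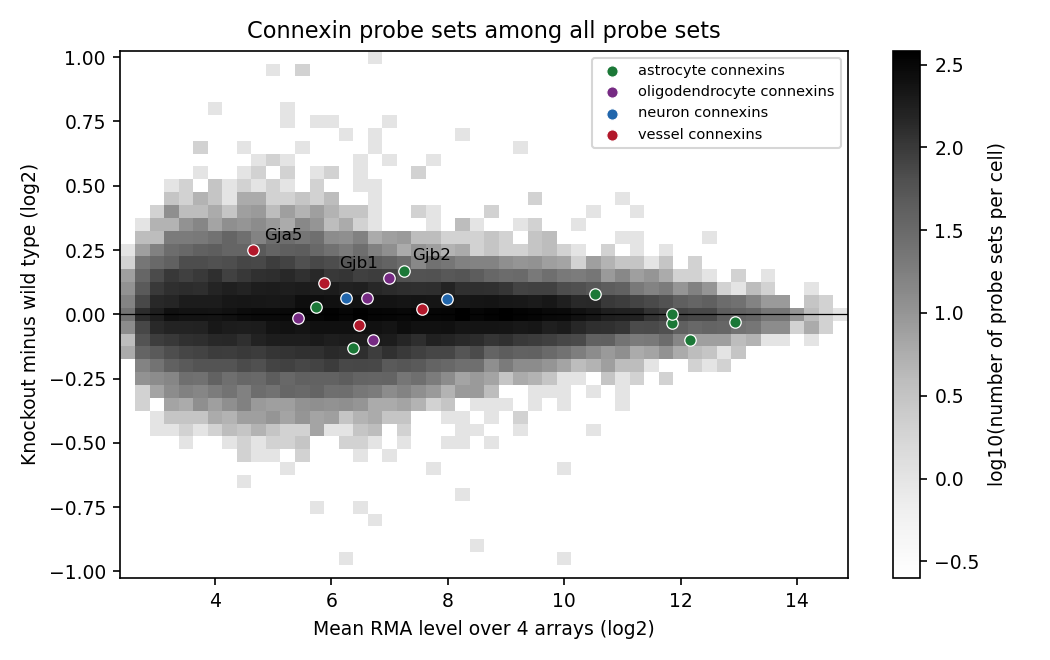
Mean RMA level over the 4 arrays (log2, horizontal) against knockout minus wild type (log2, vertical), with the number of probe sets per cell in grey on a log10 scale and the 18 connexin probe sets as coloured points. Probe sets that differed by more than 1 log2 unit are not drawn. The connexins lie within the grey cloud at their level, and the labelled Gjb2, Gjb1 and Gja5 are the 3 whose genotypes did not overlap.

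Markers of the leptomeninges, whose cells also make Gjb2, had a higher summed level in both knockout mice. The 7 leptomeningeal genes all had positive differences, with a median of 0.34 and 0 past the adjusted threshold. In 5 of the 7 both knockout arrays lay above both wild-type arrays, as in 13.9% of all probe sets, while Dcn and Lum overlapped, at 0.065 and 0.19. For Dcn the knockout mice measured 9.50 and 9.82, against 9.57 and 9.62 in wild type. The summed level of the 7 genes was 58.32 and 58.71 in the wild-type mice, against 59.88 and 61.28 in the knockouts, so both knockout mice were the higher. The gene with the smallest p was Igf2, a growth factor, at 0.34 (SE 0.076). The marker lists were chosen with earlier results of these data known, so they do not add independent evidence. For Igf2 and Fmod the earlier ranking itself was known. Without Igf2 and Fmod, 5 genes had a median of 0.30 and 3 of 5 did not overlap, with summed levels of 39.65 and 40.03 against 40.54 and 41.78. The astrocyte markers, the other source of Gjb2, had a median difference of 0.010, and their summed level was 91.02 and 91.20 in the wild-type mice, against 91.81 and 91.17 in the knockouts. Gfap, the astrocyte filament protein, had the smallest p among those above 0, at 0.29 (SE 0.081; limma's adjusted p was 1), and Aldoc, a glycolytic enzyme, among those below, at -0.025 (SE 0.070). The part of leptomeningeal tissue in the Gjb2 difference was not tested.

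Beside the vascular connexins, the markers of endothelium, the cell type of Gja5 and Gja4, had a smaller median difference than the mural list. The 7 mural genes had a median difference of 0.24, all positive and 0 past the adjusted threshold. In 4 of the 7 the knockout arrays lay above the wild-type arrays without overlap, as in 13.9% of all probe sets, while Kcnj8, Rgs5 and Cspg4 overlapped, at 0.090, 0.015 and 0.0050. Gjc1, the connexin of smooth muscle, had differences of 0.020 and -0.040. The summed level of the 7 mural genes was 55.20 and 55.49 in the wild-type mice, against 56.57 and 56.68 in the knockouts. The smallest p belonged to Tagln, a smooth muscle protein, at 0.32 (SE 0.089). The 7 endothelial genes had a median of 0.055, with 6 positive, 1 negative and 0 past the adjusted threshold. In 1 of the 7 the knockout arrays lay above the wild-type arrays without overlap, beside 13.9% of all probe sets. The summed level of the endothelial genes was 56.77 and 56.67 against 56.59 and 57.35, with only the second knockout mouse high. The smallest p in each direction belonged to Flt1, a VEGF receptor, at 0.085 (SE 0.088), and Cdh5, the endothelial cadherin, at -0.060 (SE 0.13). The 4 neutrophil markers, which circulating blood can carry, were also higher in both knockout mice, with 0 past the adjusted threshold and summed levels of 23.45 and 22.90 against 25.38 and 27.36. S100a8, a calcium-binding protein of neutrophils, differed by 1.17 (SE 0.23). Pituitary markers were 24.38 and 24.83 against 24.97 and 26.47 in summed level, with Gh, growth hormone, at 0.71 (SE 0.22), and choroid plexus markers 38.34 and 38.52 against 38.56 and 38.88, with Folr1, a folate receptor, at 0.080 (SE 0.073). The part of these lists in the Gja5 difference was not tested.

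**Figure D4:**
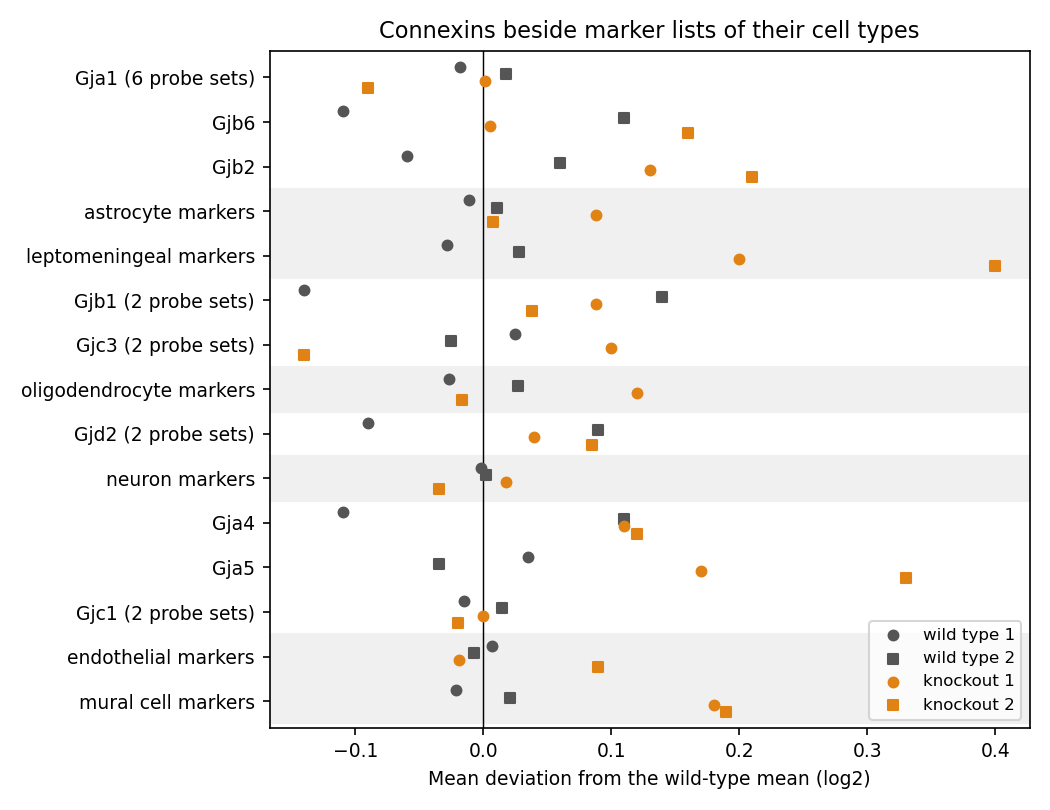
Deviation from the wild-type mean (log2, averaged over the probe sets of a gene or the genes of a list) in each mouse, for the 9 connexins on white and for marker lists of their cell types on grey. Leptomeningeal markers (Igf2 and Fmod included) and mural cell markers are higher in both knockout mice, as are Gjb2 and Gja5. The averages of Gja1, Gjc1 and the neuronal markers stay at most 0.090 from the wild-type mean. That of Gja1 joins bright and dim probe sets. Its 4 bright ones stood at -0.085, -0.225, -0.08 and -0.18 in the second knockout mouse, and at 0.025, 0.025, 0.01 and 0.18 in the first.

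Genes that act beside the connexins differed little as well. The list of junction scaffolds, adhesion molecules and glial partner proteins had 13 measured of 14 genes, with 6 positive, 7 negative, a median of -0.015 and 0 past the adjusted threshold. The smallest p in each direction belonged to Aqp4, the water channel of astrocyte endfeet, at 0.085 (SE 0.090), and Cav1, a caveolar protein, at -0.10 (SE 0.081).

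Of the 11 other connexin genes listed, 5 were measured by 6 probe sets, and these were dim. Their levels ran from 2.46 to 5.76, their differences had a median of -0.053, and 0 passed the adjusted threshold. In 0 of the 6 did both knockout arrays lie above, or both below, the wild-type arrays, where 13.9% and 13.2% of all probe sets did so. Gja10 had the largest difference, -0.19 (SE 0.16). The pannexins, which form channels related in shape to connexin half-channels, were brighter in part: Panx1 measured 8.22 and 8.33 in the wild-type mice, against 8.37 and 8.40 in the knockouts, and Panx2 8.24 and 8.40 against 8.37 and 8.52. Panx1 differed by 0.11 (SE 0.078) and Panx2 by 0.13 (SE 0.099). Of the 5 pannexin probe sets, 1 was higher and 2 were lower in the knockout without overlap, beside the same shares of all probe sets. The dim Panx3 probe set 1432860_at measured 4.93 in both wild-type mice, while the knockouts gave 4.73 and 4.71. The difference was -0.21 (SE 0.069), and limma gave an unadjusted p of 0.030 and an adjusted p of 1, while the other two probe sets of the gene differed by -0.065 and 0.015.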

How the data were processed

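The authors deposited 1 log2 level per probe set and array. The submitters' processing notes name RMA; its software and version were not stated in the sources used here. No detection calls were used. Of 45101 rows, 64 control probe sets were left out. Genes came from the platform annotation, in which 34945 probe sets named 1 gene, and 0 probe sets named a connexin studied here together with another gene. Chromosome and gene order came from RefSeq, GRCm38.p6; coordinates are left out, since the arrays name no build. Knockout and wild type were compared in limma 3.58.1 (R 4.3.3) with lmFit and eBayes on all probe sets, two-sided, with Benjamini-Hochberg adjustment and 2 residual and 2.74 prior degrees of freedom. The fit was also run on simulated data with planted shifts larger than any connexin difference. That run does not bear on differences as small as those of the connexins. The number of arrays limits the precision.

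All probe sets of the 9 connexins, the other connexins and the pannexins were taken. Other lists were represented by each gene's brightest probe set, with the member of smallest p in each direction named. Dcn, Lum, Kcnj8, Rgs5, Cspg4, Fmod and Prm1 were named after their values were seen. The members and lists were chosen with earlier results of these data known. Genes were not ranked by likeness to the connexins, because 4 arrays are too few. The alternatives were 2 other scalings, a dim filter, another variance model, a replicate block, leaving out each array, and averaging probe sets.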

Additional observations from a re-analysis of the deposited data

How the results depend on the processing

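No connexin probe set passed the adjusted threshold in limma under the alternative fits that kept all 4 arrays. The dim filter held only 11 of the 18 connexin probe sets, so its count of 0 covers those alone. Over all probe sets, 2 passed under each of the 2 other scalings, 1 under the dim filter and 10 under the other variance model. With the replicate block 0 of all probe sets passed, so its count of 0 is not particular to the connexins. With 1 array left out a group holds a lone array, so no count of passing probe sets is given there. Medians of all probe sets moved by at most 0.015. With the replicate number as a block the differences were unchanged by construction, 0 of 18 passed, the lowest adjusted p was 0.847 in limma, and 17 of 18 intervals stayed within 1.5-fold. The 2 pairs share only a number: deviations of same-numbered mice correlated at 0.241 across probe sets. Leaving out 1 array, which leaves a lone array in 1 group that is assumed to vary like the other, moved the count of members higher without overlap from 3 to between 3 and 10, and the count lower from 0 to between 1 and 7. By construction, 1 array against 2 overlaps less often. Signs turned with 1 array left out in 11 probe sets: Gja1 1415800_at ran from -0.23 to 0.025, 1415801_at from -0.30 to 0.035, 1437992_x_at from -0.085 to 0.025, 1438650_x_at from -0.080 to 0.010 and 1438973_x_at from -0.0050 to 0.065. Gjb1 1448766_at ran from -0.21 to 0.18, Gjb6 from -0.025 to 0.19, Gjc1 1449094_at from -0.040 to 0.080, Gjc3 1422042_at from -0.11 to 0.24, and Gjd2 1423019_at from -0.0050 to 0.14 and 1435297_at from -0.075 to 0.20. Averaging its 2 probe sets turned Gjc1 to -0.010. Another 6 probe sets kept their sign in the fits run on them, but not their size: with 1 array left out Gja4 ran from 0.0050 to 0.23, Gjb1 1448767_s_at from 0.050 to 0.23, Gjb2 from 0.11 to 0.23, Gja5 from 0.17 to 0.33, Gjc1 1447787_x_at from -0.070 to -0.010 and Gjc3 1445523_at from -0.17 to -0.035. Gja1 1438945_x_at, at 0, ran from -0.18 to 0.18. Of the members, 9 of 18 had signals within the range of genes taken to be low in brain, or 5 of 18 without Prm1, which limits what can be read from them. Leaving out Prm1, or Igf2 and Fmod from the leptomeningeal list, was chosen after seeing the data.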
